A study of Mus musculus with 12 samples.

Results

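The genes described here encode 9 enzymes, or enzyme subunits, that make or use 2-oxoglutarate (2OG, also called alpha-ketoglutarate): Idh1, Idh2, Idh3a, Idh3b, Idh3g, Ogdh, Dlst, Glud1 and Got2. They were chosen by gene name, and all 9 were found among the 49216 genes with counts in the deposited table. RNA was measured in male meiotic germ cells of C57Bl mice that carry tdTomato, a red fluorescent protein, in their germ cells, and the cells were sorted by flow cytometry and cultured. Leptotene and zygotene cells (LZ), the early stages of meiotic prophase, were kept for 6 days, either untreated or with 0.3 mM of a cell-permeable octyl ester of L-2-hydroxyglutarate (octyl-L2HG). Pachytene and diplotene cells (PD), the later stages, were kept for 48 hours, with no addition or with oxamate at 24 mM, which inhibits lactate dehydrogenase. The series text says that oxamate lowered 2-hydroxyglutarate (2HG) in PD cells to the amount of LZ cells; 2HG itself is not part of the data used here. The 4 groups hold 3 libraries each, labelled as independent experiments and called A, B and C here, and the tdTomato driver is not given in the sources used here.

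2OG stands where the tricarboxylic acid (TCA) cycle meets amino acid metabolism, and 2HG is made by reducing it. Isocitrate dehydrogenases make 2OG from isocitrate: IDH3, an assembly of a catalytic alpha subunit with beta and gamma subunits, works in mitochondria with NAD, IDH1 works in the cytosol with NADP and IDH2 in mitochondria with NADP. The 2OG dehydrogenase complex turns 2OG into succinyl-CoA; Ogdh encodes its E1 subunit, Dlst its E2 subunit, and Dld the E3 subunit that it shares with pyruvate dehydrogenase. Glutamate dehydrogenase (Glud1) interconverts glutamate and 2OG, and the mitochondrial aspartate aminotransferase (Got2) exchanges 2OG and aspartate for glutamate and oxaloacetate as part of the malate-aspartate shuttle. Male germ cells silence the X chromosome from pachytene on, and several metabolic enzymes have germ cell counterparts encoded on autosomes.

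In GRCm38 the genes lie on 9 different chromosomes, and all are annotated as protein-coding. Idh1 is on chromosome 1 (65158616 to 65186500, minus strand), Idh2 on chromosome 7 (80094846 to 80115392, minus) and Idh3a on chromosome 9 (54586334 to 54604661, plus). Idh3b is on chromosome 2 (130279309 to 130284547, minus), and Idh3g is the X-linked member (73778963 to 73786897, minus). Ogdh is on chromosome 11 (6291633 to 6356642, plus) and Dlst on chromosome 12 (85110833 to 85134845, plus). Glud1 is on chromosome 14 (34310727 to 34345265, plus) and Got2 on chromosome 8 (95864134 to 95888547, minus).

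Promoter windows of 300 bases, from 250 bases before to 50 after a transcription start, were taken from RefSeq (GRCm38.p6), where 8 of the 9 genes matched. The windows of Idh3b, the gene with the highest rise between the stages, and of Glud1 and Idh3g, the genes with the deepest falls, are shown because their levels moved furthest in opposite directions. Capitals mark exact matches, on either strand, to CCAAT (the box of that name), GGGCGG (a GC box), CAACTG (the core recognised by MYB factors) or TGACGTCA (the cyclic AMP response element).
Idh3b, chr2:130284402-130284701, minus strand: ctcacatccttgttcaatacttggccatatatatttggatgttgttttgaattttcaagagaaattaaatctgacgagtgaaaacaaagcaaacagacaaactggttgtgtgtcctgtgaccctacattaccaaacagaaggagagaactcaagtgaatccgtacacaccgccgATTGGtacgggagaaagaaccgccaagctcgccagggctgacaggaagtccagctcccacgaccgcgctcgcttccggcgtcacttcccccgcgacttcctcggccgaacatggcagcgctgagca
Glud1, chr14:34310477-34310776, plus strand: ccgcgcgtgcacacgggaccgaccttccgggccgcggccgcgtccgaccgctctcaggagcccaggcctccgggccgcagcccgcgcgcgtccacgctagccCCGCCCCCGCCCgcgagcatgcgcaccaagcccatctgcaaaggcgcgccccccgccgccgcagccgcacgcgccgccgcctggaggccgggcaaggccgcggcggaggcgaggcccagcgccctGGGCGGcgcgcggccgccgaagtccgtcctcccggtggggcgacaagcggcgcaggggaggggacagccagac
Idh3g, chrX:73786848-73787147, minus strand: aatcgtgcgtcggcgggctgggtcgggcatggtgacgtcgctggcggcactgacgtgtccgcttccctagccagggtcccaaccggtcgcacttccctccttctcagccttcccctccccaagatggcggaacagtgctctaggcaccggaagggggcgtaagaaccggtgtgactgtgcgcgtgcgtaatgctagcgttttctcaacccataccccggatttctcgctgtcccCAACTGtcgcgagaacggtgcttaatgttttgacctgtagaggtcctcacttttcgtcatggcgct
The Idh3b window holds 1 CCAAT match, written here on the opposite strand, and 50.3% of its bases are G or C. The Glud1 window holds 3 GC box matches, of which 2 stand side by side, and is 81.0% G or C. The Idh3g window holds 1 match to CAACTG and is 60.3% G or C. No 2 matches of different motifs overlap in these windows. Among 32851 RefSeq promoter windows of the same length, 37.4% hold CCAAT, 35.7% GGGCGG, 13.7% CAACTG and 1.79% TGACGTCA, so matches to the first 2 are common. A match is a description of the sequence only.

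Total counts of the LZ libraries ran from 10532504 to 15903788 untreated and from 11271410 to 18432143 with octyl-L2HG. Those of the PD libraries ran from 15202579 to 21275486 untreated and from 19107780 to 21115131 with oxamate. Counts were scaled between libraries by the trimmed mean of M values (TMM), and the scaled values are called normalized counts below. The 15 markers of meiotic entry, leptotene and zygotene took 0.398 to 0.536% of counts in untreated LZ libraries and 0.0560 to 0.0807% in untreated PD libraries, and the 15 pachytene and diplotene markers 0.166 to 0.222% and 1.67 to 1.69%. These sums follow the labels. Rec8, Spo11 and Mei1 of the first list had higher normalized means in untreated PD libraries (549, 1259 and 179 against 83.2, 629 and 28.4). Mybl1 of the second list was lower there (3584, against 4511 in untreated LZ libraries). The other genes of both lists followed the labels by their means. Library A of untreated LZ held the highest value of 7 of the 9 genes within its group, and library A of octyl-L2HG likewise 7 of 9, so the letter A went with higher levels in both LZ groups. Untreated PD cells differ from untreated LZ cells in stage and also in time in culture, and these cannot be told apart. In bulk RNA, fewer cells that express a gene and less RNA per cell cannot be told apart either.

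The stage comparison asks how untreated PD cells differ from untreated LZ cells. Of the 8 genes with enough counts to be tested, Idh3b, Ogdh and Dlst were called higher in PD cells and Idh3a, Idh3g, Glud1 and Got2 lower, while Idh1 did not pass the test. A call is an adjusted p under 0.05 from limma with Benjamini-Hochberg adjustment over all 16881 genes tested. In this comparison 89.8% of all tested genes were called, 50.8% higher and 38.9% lower, so 3 higher and 4 lower of 8 is close to the background. The median log2 fold change was -0.91 over the 8 genes and 0.49 over all tested genes. The sizes within the family ran from a 5.96-fold rise to a 40.3-fold fall.

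**Figure D1:**
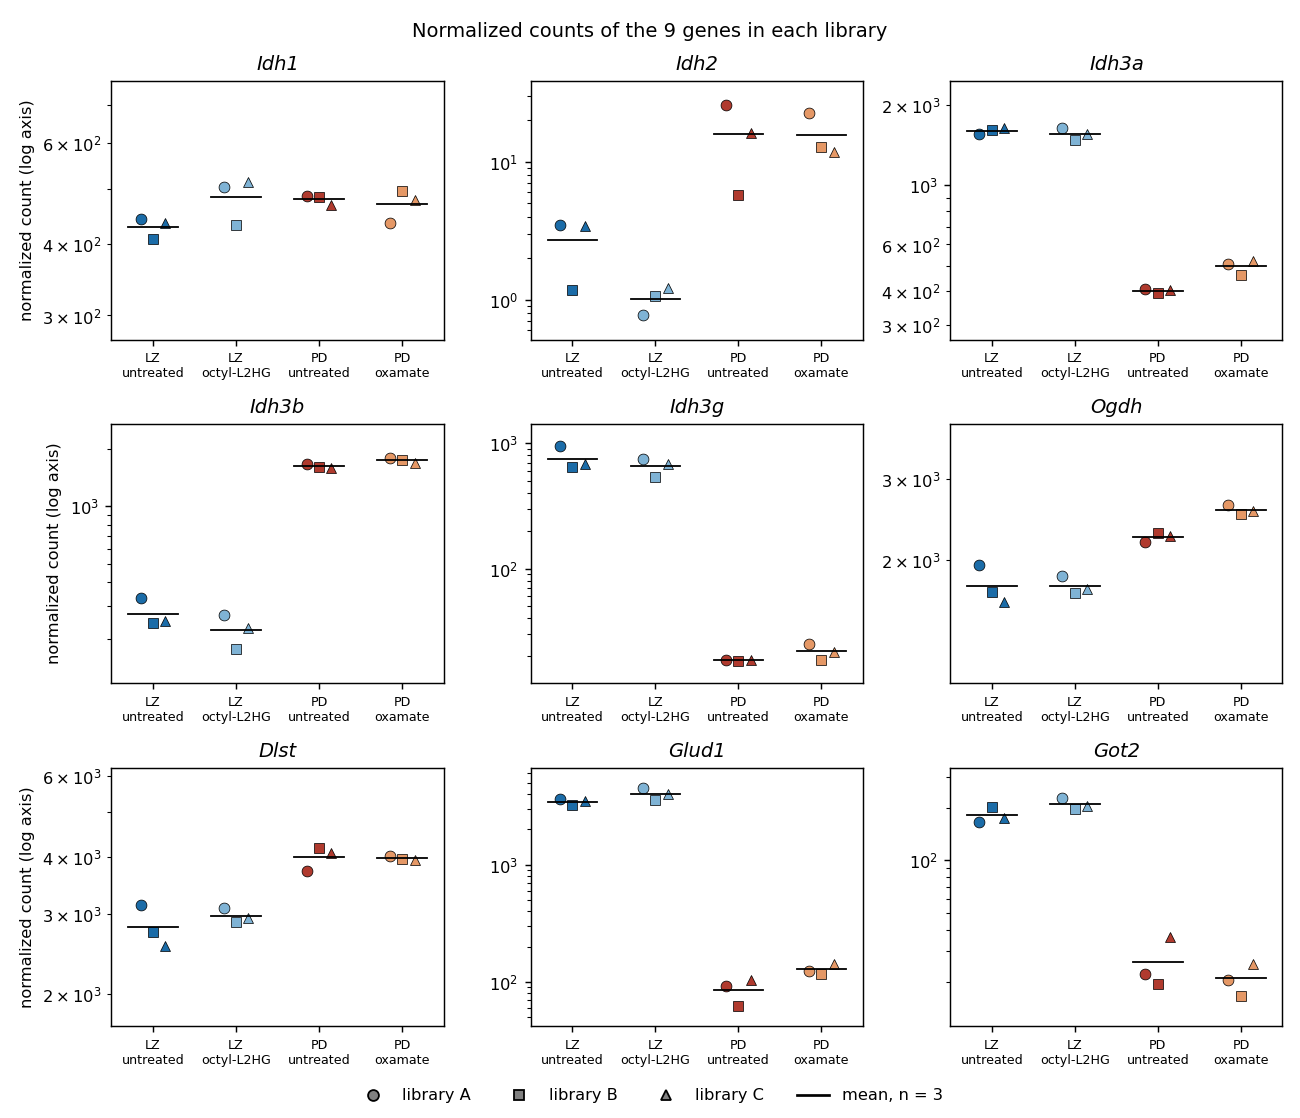
Normalized counts (log axis) of each gene in each of the 12 libraries, with 3 libraries per group; the marker shape gives the library letter and the black line the group mean. Idh3a, Idh3g, Glud1 and Got2 stand lower in all PD libraries than in all LZ libraries and Idh3b stands higher, while Idh1 stays between 408 and 514 in all 12.

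The NAD-dependent enzyme IDH3 showed the widest split, since its subunit genes moved in opposite directions. Idh3a, the catalytic subunit, had normalized counts of 1553, 1612 and 1640.0 in untreated LZ libraries A, B and C and of 409, 396 and 404 in untreated PD libraries. The groups did not overlap, and the level fell 3.97-fold (log2 fold change -1.99, SE 0.08, limma adjusted p = 9.73e-12). Idh3b, the beta subunit, stood at 329, 243 and 249 in LZ libraries and at 1664, 1613 and 1584 in PD libraries. All 3 PD libraries lay above all LZ libraries, a 5.96-fold rise (log2 fold change 2.58, SE 0.14, limma adjusted p = 2.63e-10). Idh3g, the X-linked gamma subunit, stood at 946, 643 and 680.1 in LZ libraries and at 18.6, 18.3 and 18.7 in PD libraries, which rest on 16, 16 and 22 raw counts. It fell 38.2-fold (log2 fold change -5.26, SE 0.19, limma adjusted p = 2.28e-12), and the low PD counts carry a large counting error.

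Idh3g can be set beside the other genes of its chromosome. The test called 454 of 601 X-linked genes lower and 123 higher, and their median log2 fold change was -4.56, where that of the autosomal genes was 0.57. Idh3g, at -5.26, lay below that median, and 39.6% of the X-linked genes had a lower value. The other subunit genes are autosomal.

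Within a library the 3 subunits can be compared without any scaling between libraries, as shares of their summed raw counts, which are not corrected for gene length. The Idh3g share was 33.5, 25.7 and 26.5% in untreated LZ libraries and 0.891, 0.902 and 0.929% in untreated PD libraries. The mean fell from 28.6 ± 4.26% to 0.907 ± 0.0196% (SD, n = 3 per group; two-sided exact permutation p = 0.1, the smallest that 3 against 3 libraries can give). The Idh3a share went from 61.1 ± 5.36% to 19.7 ± 0.355%, and the Idh3b share from 10.3 ± 1.11% to 79.4 ± 0.374%, each with the same exact permutation p = 0.1 and no overlap. Idh3a had 5.98 ± 1.09 counts per Idh3b count in LZ libraries and 0.249 ± 0.00566 in PD libraries. The summed normalized counts of the 3 genes were 2827, 2498 and 2569 in LZ libraries and 2092, 2027 and 2007 in PD libraries. The sum therefore moved far less than any of its parts.

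**Figure D2:**
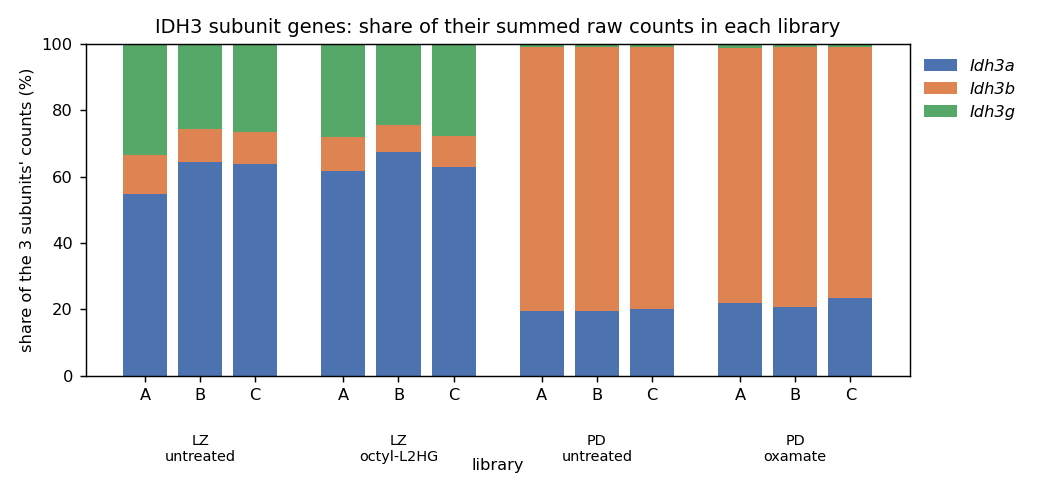
Share (%) of each IDH3 subunit gene in the summed raw counts of the 3 genes, for each library; shares are not corrected for gene length. Idh3b makes up 75.7 to 79.6% in the 6 PD libraries and 8.11 to 11.6% in the 6 LZ libraries, and Idh3g shrinks to a thin band in PD cells.

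Of the NADP-dependent enzymes, Idh1 was at a moderate level in every group and Idh2 was near the limit of detection. Idh1, the cytosolic enzyme, had normalized counts of 443, 408 and 436 in untreated LZ libraries and 485, 483 and 469 in untreated PD libraries. The groups did not overlap, as was so for 89.9% of all tested genes, but the log2 fold change of 0.16 (SE 0.10) did not pass (limma adjusted p = 0.138). Its 95% interval, as a percent difference from LZ cells, ran from -3.52 to 29.2%. That small difference turns with the scaling: when libraries were scaled by their total counts, Idh1 had a log2 fold change of -0.32 (limma adjusted p = 0.00325).

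Idh2, the mitochondrial enzyme, was barely detected. It had 4, 1 and 3 raw counts in untreated LZ libraries and 22, 5 and 19 in untreated PD libraries. Its mean normalized count over the 12 libraries, 8.80, was under the minimum of 10, so it was not among the tested genes. Without that minimum the log2 fold change was 2.05 (SE 0.48, limma adjusted p = 0.000984), and the authors' deposited table gave 2.48 with an adjusted p of 0.00116. As a share of Idh1 and Idh2 raw counts, Idh2 made up 0.780, 0.287 and 0.783% in LZ libraries and 5.02, 1.17 and 3.32% in PD libraries (two-sided exact permutation p = 0.1, the smallest possible). The PD libraries lay above the LZ libraries, with library B lowest and library A highest among them.

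Of the 2OG dehydrogenase complex, the E1 and E2 subunit genes differed little between the stages. Ogdh, its E1 subunit, had normalized counts of 1948, 1700.3 and 1619 in untreated LZ libraries and 2189.8, 2288 and 2252 in untreated PD libraries. Dlst, its E2 subunit, had 3138, 2731 and 2551 in LZ libraries and 3716, 4178 and 4077 in PD libraries. Neither gene overlapped between the groups, and both were called higher, Ogdh with a log2 fold change of 0.36 (SE 0.08, limma adjusted p = 0.000769) and Dlst with 0.51 (SE 0.08, limma adjusted p = 4.67e-05). With total-count scaling, however, Ogdh turned to -0.12 (limma adjusted p = 0.0619) and Dlst stood at 0.03 (limma adjusted p = 0.634). That scaling moved the median of all tested genes from 0.49 to -0.08, and against the median of all genes Ogdh lay 0.13 lower and Dlst 0.03 higher. Under both scalings, then, these genes lay near the median gene. Dlst had 1.61, 1.61 and 1.58 counts per Ogdh count in LZ libraries and 1.70, 1.83 and 1.81 in PD libraries, without overlap.

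The E3 subunit went the other way. Dld had a normalized count of 2978 ± 318 in untreated LZ libraries and 1863 ± 184 in untreated PD libraries (n = 3 each; 1.60-fold lower, limma adjusted p = 1.82e-05). It had 1.07 ± 0.119 counts per Dlst count in LZ libraries and 0.466 ± 0.0207 in PD libraries. Mrps36, which ties E3 to the complex, stood at 159 ± 16.4 and 123 ± 20.95 and did not pass (limma adjusted p = 0.0523). That result turned with the processing. Its log2 fold change was -0.37, but -0.85 with total-count scaling (limma adjusted p = 0.000314). Over the 15 alternatives its limma adjusted p ran from 0.000314 to 0.187. The related E1 genes were low and lower in PD cells: Ogdhl, the OGDH-like enzyme, fell from 79.8 ± 4.46 to 8.49 ± 5.56 (9.45-fold), and Dhtkd1, the E1 of 2-oxoadipate dehydrogenase, from 50.1 ± 8.93 to 29.6 ± 9.26 (1.71-fold, limma adjusted p = 0.0199). The Dhtkd1 call was lost without library A or C of untreated LZ or without library C of untreated PD (highest limma adjusted p = 0.106).

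The E2 enzymes carry lipoic acid, so the genes that make and attach it were listed with these partners. Of the 13 genes of that list, Dld and the related E1 genes included, 6 were higher and 5 lower in PD cells, with a median log2 fold change of 0.21. Bola3 and Nfu1, which deliver iron-sulfur clusters for lipoate synthesis, rose 11.9-fold and 4.24-fold. Lipt2, which transfers the lipoyl precursor octanoate, fell from 227 ± 52.2 to 5.19 ± 3.26, and Glrx5, a glutaredoxin of iron-sulfur cluster assembly, fell 3.60-fold.

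Both enzymes that link 2OG to glutamate fell, Glud1 the furthest of the 8 tested genes. Glud1 had normalized counts of 3633, 3209 and 3470.5 in untreated LZ libraries and 92.0, 62.9 and 103 in untreated PD libraries, the latter from 79, 55 and 122 raw counts. Every PD library lay far below every LZ library, a 40.3-fold fall (log2 fold change -5.33, SE 0.16, limma adjusted p = 3.96e-13), and 3.54% of all tested genes had a lower log2 fold change. Got2 had 166, 202 and 175 in LZ libraries and 22.1, 19.4 and 36.5 in PD libraries, the latter from 19, 17 and 43 raw counts. It fell 6.96-fold (log2 fold change -2.80, SE 0.24, limma adjusted p = 3.23e-08). Among Glud1 and Got2 raw counts, the Glud1 share went from 94.97 ± 0.796% to 77.0 ± 3.38% (two-sided exact permutation p = 0.1, the smallest possible).

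The summed markers of other testis cells went in both directions between the stages. These sums are shares of raw counts without TMM scaling, so their directions need not match those of normalized counts. The Sertoli, peritubular and stromal, Leydig, macrophage and leukocyte and spermatogonial sums were lower in PD libraries, as were Glud1, Got2, Idh3a and Idh3g, and the round spermatid and endothelial sums were higher, as was Idh3b. The 11 Sertoli cell markers took 0.0347 to 0.0389% of counts in untreated LZ libraries and 0.000416 to 0.000559% in untreated PD libraries. The protease gene Ctsl held most of that, with a mean normalized count of 4471 in LZ libraries. The defining Sertoli markers Sox9, Wt1 and Gata4 stood at 1.55, 3.95 and 7.64 in LZ libraries, and Fshr at 0 in all 12. Another marker of that list, Inha, was higher in PD libraries, at 28.7 against 3.01. The 10 peritubular and stromal markers took 0.0219 to 0.0256% in LZ libraries and 0.000965 to 0.00107% in PD libraries, and their leading gene in LZ libraries, Fn1, stood at 2807 and at 72.8 in PD libraries. Acta2, Tagln, Col3a1 and Dcn of the same list had higher means in PD libraries (5.93, 54.3, 11.7 and 2.104) than in LZ libraries (2.22, 31.9, 2.14 and 0.290). The 10 round spermatid markers took 0.000432 to 0.00172% in LZ libraries and 0.0787 to 0.0920% in PD libraries, and the 7 endothelial markers 0.000883 to 0.00110% and 0.00249 to 0.00255%. Pecam1 of the endothelial list had a lower mean normalized count in PD libraries, at 83.4 against 107.5. The 9 spermatogonial, 7 Leydig and 9 macrophage and leukocyte markers took at most 0.00884% of counts in any library. Id4, Gfra1 and Zbtb16 of the spermatogonial list had higher PD means (942, 84.1 and 12.6) than LZ means (205, 1.07 and 2.32). Adgre1, Ptprc, C1qb and Cd14 of the macrophage and leukocyte list did too (17.8, 15.4, 30.6 and 5.17 against 0, 2.03, 1.07 and 2.04). The other genes of both lists had lower PD means, with Cd68 at 5.15 against 135. The part of these cells in the differences was not tested.

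Per kilobase of annotated exon, the order of the genes changed with the stage. The length used is the union of all annotated exons, which need not be the length of the transcripts expressed. Ranks between genes depend on that length. In untreated PD cells Dlst, with 9559 bases, had a mean normalized count of 3990 and Idh3b, with 3422 bases, one of 1621. In untreated LZ cells Glud1 was highest at 817 ± 50.8 normalized counts per kb, followed by Ogdh, Idh3a, Dlst and Idh3g at 322, 316, 294 and 280.0, whose neighbouring ranges overlapped. Idh1 (155 ± 6.53), Idh3b (79.9 ± 13.99), Got2 (37.5 ± 3.84) and Idh2 (1.04 ± 0.510) came next, each in turn below all libraries of the one before. In untreated PD cells Idh3b, which ranked seventh in LZ cells, was highest at 474 ± 11.8, above Dlst and Ogdh at 417 ± 25.4 and 411 ± 9.11, whose ranges overlapped. Idh1 (173 ± 3.09), Idh3a (79.4 ± 1.33) and Glud1 (20.5 ± 4.97) followed without overlap. Idh3g, Idh2 and Got2 closed the order at 6.86, 6.11 and 5.39 with overlapping ranges.

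**Figure D3:**
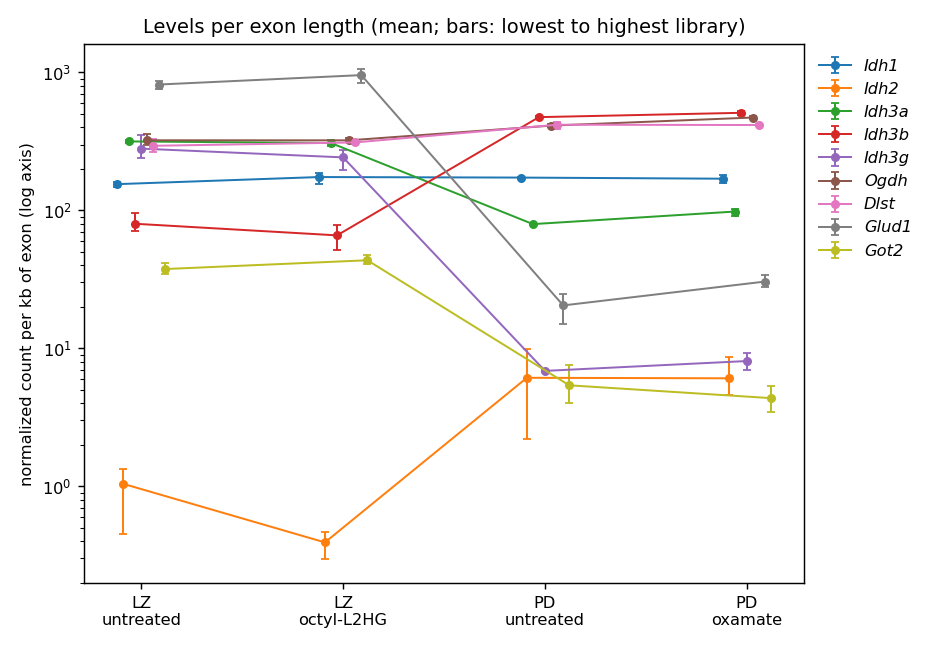
Normalized counts per kilobase of annotated exon (log axis) in the 4 groups; points are means of 3 libraries, bars run from the lowest to the highest library, and lines only join the points of a gene. Glud1 goes from the top in LZ cells (817) to sixth in PD cells (20.5), and Idh3b from 79.9 to the top at 474.

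The genes whose level followed each of these most closely were found by Pearson correlation of log2 normalized counts over the 12 libraries, among 9134 genes. Glud1 was most like Golt1b, Mob1a and Usp33, each with r of 0.999. Idh3g was most like Cadm1, Rxylt1 and Igf2bp1, and Idh3b most like Prss44, Adad1 and Samd10, all at 0.999 or above. Idh3a was nearest to Rcl1, Lman1 and Fbrsl1 and Got2 to Fra10ac1, Fam219b and Mat2b (r of 0.996 to 0.998). For these 5 genes between 2650 and 3462 genes passed an r of 0.95, since the 12 points share the stage split. Idh1, which lacks that split, was closest to Pfkfb2, Ate1 and Ptrh2 with r of 0.816, 0.812 and 0.796.

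The rest of the pathway, taken from lists, also went both ways between the stages. Of 16 other TCA cycle genes, Dld among them, 6 were higher and 9 lower in PD cells, with a median log2 fold change of -0.54. Csl, a citrate synthase relative, rose from 8.70 ± 0.680 to 4999 ± 144, and Mdh1b, a malate dehydrogenase relative, from 9.63 ± 4.57 to 3428 ± 70.5. Aco1, the cytosolic aconitase, fell from 428 ± 84.3 to 0.388 ± 0.672, and Mdh2, the mitochondrial malate dehydrogenase, fell 8.89-fold. Suclg1, the alpha subunit of the enzyme that uses succinyl-CoA, rose 7.01-fold.

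Of 13 tested genes of the pyruvate dehydrogenase complex, its regulators and the pyruvate carriers, 5 were higher and 6 lower. The X-linked E1 gene Pdha1 went from 149 ± 16 to 0.283 ± 0.489, while its autosomal counterpart Pdha2 rose from 1847 ± 623 to 4736 ± 71.9. Dlat and Pdhx, structural subunits of the core, rose 4.97-fold and 3.74-fold, and Mpc2, a pyruvate carrier subunit, 4.14-fold. The kinases that inactivate the complex moved oppositely, with Pdk2 198-fold higher (22.4 ± 5.47 to 4544 ± 288) and Pdk1 lower (424 ± 63.2 to 1.72 ± 0.561). Pdpr, the regulatory subunit of the phosphatase, fell 37.6-fold.

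Other transaminases that use 2OG, besides Got2, had 4 of 10 tested genes higher and 5 lower. Oat, ornithine aminotransferase, fell 59.2-fold from 2685 ± 322 to 46.3 ± 16.3, and Gpt2 and Gpt, the alanine aminotransferases, fell 10.7-fold and 6.19-fold. Abat, which acts on GABA, and Psat1, phosphoserine aminotransferase, fell 6.88-fold and 2.81-fold. Got1l1, a GOT1 relative, Bcat2, the mitochondrial branched-chain aminotransferase, and the kynurenine aminotransferases Kyat1 and Kyat3 rose 5.57-fold, 4.61-fold, 2.22-fold and 2.11-fold. Got1, the cytosolic partner of Got2 in the malate-aspartate shuttle, stood at 64.9 ± 14.9 in LZ cells and 67.1 ± 5.17 in PD cells and did not pass (limma adjusted p = 0.749).

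Among 8 tested genes of glutamine, glutamate and proline metabolism, 4 were higher and 4 lower. The low Gls2 rose from 8.51 ± 1.35 to 18.9 ± 0.459. Asns and Aldh5a1 fell 2.40-fold and 2.184-fold, and Pycr1 and Aldh18a1, of proline synthesis, rose 3.65-fold and 2.63-fold. The Aldh5a1 call was lost without library B of untreated LZ or library C of untreated PD (highest limma adjusted p = 0.166). Glul, glutamine synthetase, was called 1.49-fold higher, but with total-count scaling its log2 fold change of 0.09 did not pass (limma adjusted p = 0.531).

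Of 8 mitochondrial carriers of these metabolites 4 were higher and 4 lower. Higher were Slc25a10 (dicarboxylates, 22.3-fold), Slc25a21 (2-oxodicarboxylates, 10.2-fold), Slc25a1 (citrate, 1.76-fold) and Slc25a11 (2OG and malate, 1.44-fold). Lower were the glutamate carriers Slc25a22 and Slc25a18 (11.1-fold and 3.37-fold) and the aspartate-glutamate carriers Slc25a13 and Slc25a12 (5.63-fold and 3.17-fold). The Slc25a11 call was lost with total-count scaling (log2 fold change 0.04, limma adjusted p = 0.776).

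Of 6 genes of 2HG metabolism 4 were higher. Adhfe1, an alcohol dehydrogenase family enzyme that makes D-2HG from 2OG, rose 7.16-fold and D2hgdh, which turns D-2HG back into 2OG, 4.26-fold. Ldha and Ldhc, subunits of lactate dehydrogenase, the enzyme that oxamate inhibits, were the other genes called higher.

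**Figure D4:**
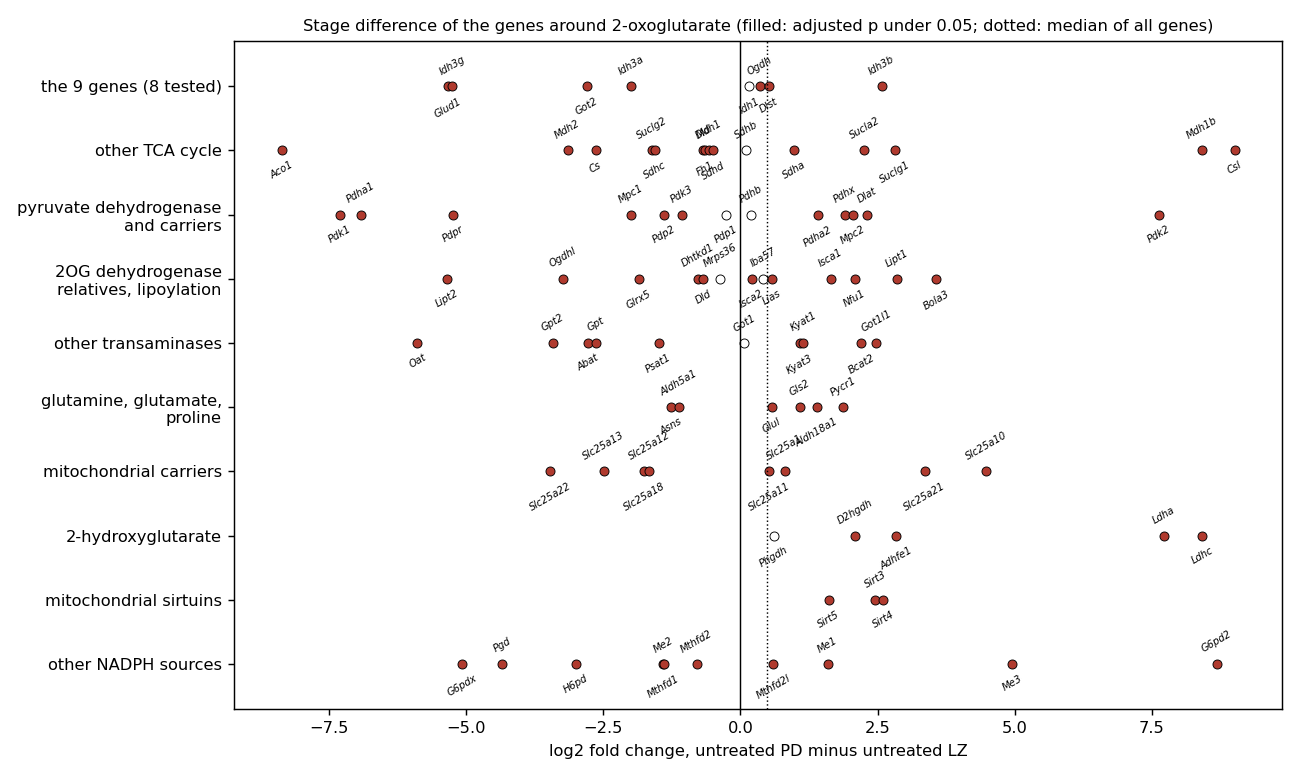
Log2 fold change of untreated PD against untreated LZ for the genes described here and tested genes of 9 lists; filled points had a limma adjusted p under 0.05, and the dotted line marks the median of all tested genes (0.49). Most lists hold genes on both sides of 0, and all 3 sirtuins stand above it.

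The octyl-L2HG comparison asks whether LZ cells given L-2HG differ from untreated LZ cells. None of the 8 tested genes was called, by limma or in the authors' deposited table. Of all 13039 tested genes 0.307% were called, which is 40 genes (0.276% higher and 0.0307% lower). Before adjustment, 1322 genes were higher and 372 lower with a p under 0.05. Adjusted p-values of the 8 genes ran from 0.426 to 0.995 (limma), and the groups overlapped for each of them. Nor was any gene called in the 9 pathway lists.

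Glud1 had normalized counts of 4490.1, 3552 and 4019.9 with octyl-L2HG against 3633, 3209 and 3470.5 without it. The treated libraries were higher letter by letter, but B with octyl-L2HG lay below A without it. The log2 fold change was 0.22 (SE 0.16, limma adjusted p = 0.596), with a 95% interval for the difference from -7.71 to 47.3%. Idh1 stood at 504, 431 and 514, of which only B lay within the untreated range, with a log2 fold change of 0.17 (SE 0.10, limma adjusted p = 0.508). Idh3b stood at 269, 178 and 229.7 and had the lowest log2 fold change of the 8 tested genes, -0.28 (SE 0.14, limma adjusted p = 0.426), with an interval from -33.6 to 1.52%. Idh3g had 743, 534 and 684, also within reach of the untreated libraries (log2 fold change -0.20, SE 0.19).

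The intervals of the other genes differed in width. For Ogdh, at 1839.6, 1697 and 1727, the interval ran from -11.2 to 13.0%. For Idh3a, at 1641, 1478 and 1559, it ran from -13.7 to 9.77%, and for Dlst, at 3091, 2877 and 2937, from -6.44 to 20.4%. Got2, at 227, 198 and 204, had the widest, from -18.6 to 64.8%. Idh2 had 1 raw count in each octyl-L2HG library. Changes inside these intervals were not detectable at this number of libraries.

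**Figure D5:**
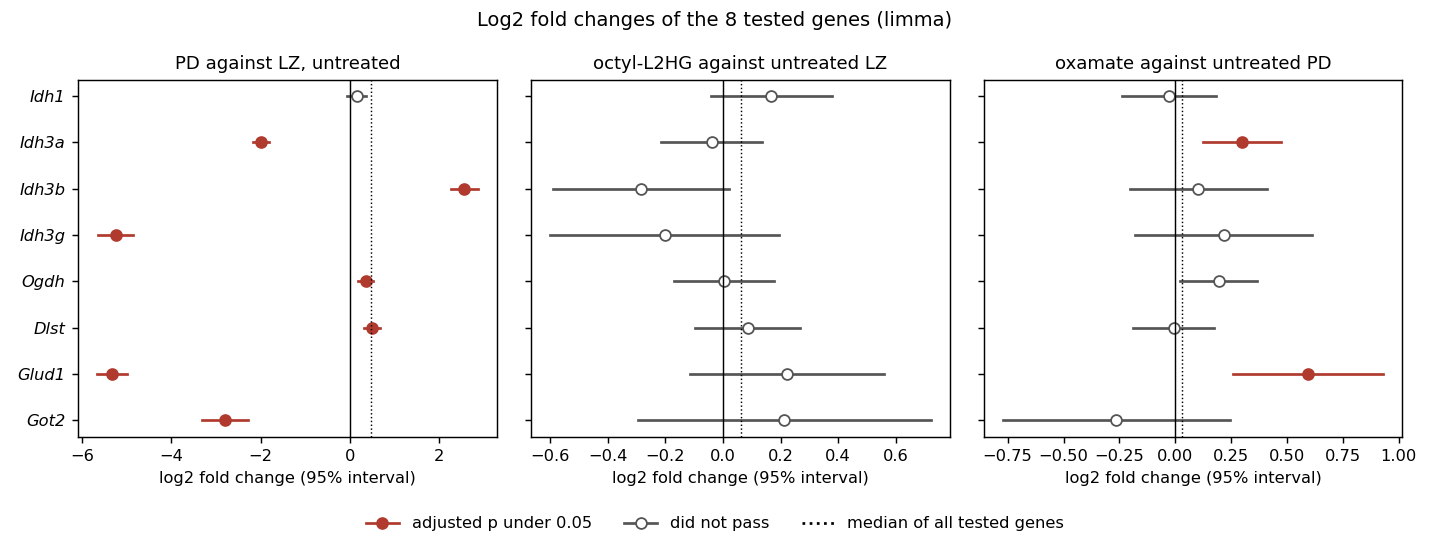
Log2 fold changes with 95% intervals (limma) of the 8 tested genes in the 3 comparisons, each with its own horizontal scale; filled red points had an adjusted p under 0.05 and the dotted line is the median of all tested genes. The stage values span -5.33 to 2.58, while those of the treatments stay between -0.28 and 0.59.

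The oxamate comparison asks whether PD cells given the inhibitor differ from untreated PD cells. Glud1 and Idh3a, 2 of the 8 tested genes, were called higher and none lower. Of all 15233 tested genes 7.79% were called, 6.13% higher and 1.65% lower. The median log2 fold change was 0.15 over the 8 genes and 0.03 over all tested genes.

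Glud1 had normalized counts of 125, 117 and 143 with oxamate against 92.0, 62.9 and 103 without. All oxamate libraries lay above all untreated ones, a 1.51-fold difference (log2 fold change 0.59, SE 0.16, limma adjusted p = 0.0336, 95% interval for the difference 19.5 to 90.8%). The authors' deposited table gave 0.54 with an adjusted p of 0.0183. Idh3a had 508, 463 and 520.5 against 409, 396 and 404, again without overlap (1.23-fold, log2 fold change 0.30, SE 0.08, limma adjusted p = 0.0376). The authors' deposited table gave 0.28 with an adjusted p of 0.155 for it. For 34.4% of all tested genes the oxamate and untreated libraries did not overlap.

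Both calls rested close to the threshold. The Idh3a call was lost when any 1 of the 6 libraries was left out (limma adjusted p of 0.0502 to 0.128). The Glud1 call was kept without library C of untreated PD (limma adjusted p = 0.0194). It was lost without A (0.0520) or B (0.108) of untreated PD and without A (0.0660), B (0.0653) or C (0.119) of the oxamate group, all limma adjusted p-values. Without library B of untreated PD the Glud1 log2 fold change was 0.39. With the shared letter as a block in the model of all 12 libraries, the limma adjusted p was 0.00769 for Glud1 and 0.0237 for Idh3a. The data bear out the pairing by letter between oxamate and untreated PD libraries. That block also spans the LZ libraries, for which the data do not settle the pairing.

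The other genes did not pass. Ogdh had 2627, 2519 and 2556 with oxamate against 2189.8, 2288 and 2252, and although the groups did not overlap, its log2 fold change of 0.19 (SE 0.08) had a limma adjusted p of 0.182. Dlst had 4017, 3958 and 3932 against 3716, 4178 and 4077 (log2 fold change -0.0060, SE 0.08), with an interval from -12.2 to 13.0%. The number of Dlst counts per Ogdh count was 1.55 ± 0.0221 with oxamate and 1.78 ± 0.0704 without (two-sided exact permutation p = 0.1, the smallest possible). Idh3b, at 1796, 1742 and 1688, and Idh3g, at 25.1, 18.7 and 21.6, lay above their untreated libraries with log2 fold changes of 0.10 and 0.22 (limma adjusted p = 0.790 and 0.595). Idh1 (435, 496 and 478) and Got2 (20.6, 16.8 and 25.6) overlapped the untreated libraries, with log2 fold changes of -0.029 and -0.26. Idh2 had 25, 13 and 12 raw counts. Its normalized counts, from 11.8 to 22.4, lay in the range of its untreated libraries (5.72 to 25.6).

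Shares within a library were compared as well. Idh3a made up 22.0 ± 1.27% of IDH3 subunit counts with oxamate against 19.7 ± 0.355% without, and Idh3b 77.1 ± 1.33% against 79.4 ± 0.374%, each without overlap. The Glud1 share of Glud1 and Got2 counts was 86.0 ± 1.37% with oxamate and 77.0 ± 3.38% without (two-sided exact permutation p = 0.1 for each of the 3, the smallest possible).

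Members of the pathway lists were also called with oxamate, beside 7.79% of all tested genes. Called higher were 1 of 15 tested other TCA cycle genes, 1 of 11 of the pyruvate list and 1 of 9 other transaminases. Of 7 tested glutamine, glutamate and proline genes, 1 was higher and 1 lower. Glul, glutamine synthetase, was 1.56-fold lower (485 ± 51.5 against 757 ± 54.0, limma adjusted p = 0.0111). Cs, citrate synthase, was 1.37-fold higher (limma adjusted p = 0.0137), Mpc1, a pyruvate carrier subunit, 1.27-fold higher (limma adjusted p = 0.0377) and Psat1 2.76-fold higher (limma adjusted p = 0.00229). Psat1 was called in all 15 alternatives run, Glul in all but that without library B of oxamate (limma adjusted p = 0.0597), and Cs in all but those without library C of untreated PD or B of oxamate (at most 0.0640). Mpc1 lost its call in 10 of 15 alternatives, with every library left out in turn among them. The lists of carriers, 2HG enzymes, sirtuins, NADPH sources and 2OG dehydrogenase partners held no called gene.

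The oxamate and stage comparisons share the untreated PD libraries, so their values are set side by side without a measure of likeness. With oxamate and between the stages respectively, the log2 fold changes were 0.59 and -5.33 for Glud1, 0.30 and -1.99 for Idh3a and 0.45 and -2.64 for Cs. They were 0.34 and -1.99 for Mpc1, 1.46 and -1.49 for Psat1 and -0.64 and 0.57 for Glul. Glud1 with oxamate, at 128 ± 13.0, remained far below its 3438 ± 214 in untreated LZ cells.

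Round spermatid markers were lower with oxamate, at 0.0557 to 0.0710% of counts against 0.0787 to 0.0920% in untreated PD libraries, although Acrv1, Spaca1 and Catsper1 of that list had slightly higher means (1212, 1582 and 1173 against 1184, 1517 and 1111). As a share of raw counts, the pachytene and diplotene sum was lower without overlap (1.55 to 1.65% against 1.67 to 1.69%). In normalized counts its genes went both ways. Piwil1, Ybx3, Ldhc, Ccna1, Meig1, Mybl1, Pgk2 and Clgn had higher means with oxamate, and the other genes of that list lower ones. Ldhc stood at 68847 against 67229 and Hspa2 at 41678 against 46952. The endothelial share was also lower without overlap (0.00152 to 0.00169% against 0.00249 to 0.00255%). The peritubular and stromal, Leydig, and macrophage and leukocyte sums were lower without overlap too, each at most 0.00107% in a PD library. Some genes of these lists had higher normalized means with oxamate. They were Cdh5 (25.3 against 23.2, endothelial), Col3a1 (21.1 against 11.7, stromal) and Adgre1 (20.1 against 17.8, macrophage). Csf1r and Lyz2 of the macrophage list and Insl3 and Hsd3b1 of the Leydig list were slightly higher. The spermatogonial sum was higher without overlap (0.00663 to 0.00739% against 0.00601 to 0.00645%). Id4 led it, with a mean normalized count of 1167 against 942, and Uchl1 was slightly higher. Gfra1 (70.4 against 84.1), Kit (28.9 against 34.0), Zbtb16, Etv5, Dmrt1 and Sohlh1 of that list had lower means. The leptotene and zygotene sums (0.0519 to 0.0791% against 0.0560 to 0.0807%) and the Sertoli sums overlapped. The part of the cell mix in the Glud1 and Idh3a values was not tested.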

How the data were processed

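Per the labels' protocols, the 12 RNA-seq libraries were strand-specific and made from polyadenylated RNA. The authors deposited 1 table of raw read counts per gene, together with normalized copies, log2 fold changes and adjusted p-values of their own. GRCm38, DESeq2 1.22.2, TopHat2 2.1.1, HTSeq 0.6.0, cutadapt 1.18 and bcl2fastq 2.18.0.12 are named in the submitters' processing notes. Not given in the sources used here are the annotation, the counter's strand setting and the authors' statistical model. Without the strand setting, reads of overlapping genes cannot be told apart with certainty. Of 55471 genes, 6255 (no protein-coding gene among them) hold question marks in place of counts and were left out. Another 12 columns, which hold the authors' normalized values, were left aside. The names of the columns give the group but not the labelled replicate, so libraries are named by the code that the groups share.

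Because text shares the count columns, count models were not run, a departure from what counts would call for. TMM scaling was done in R 4.3.3, and values entered the tests as log2(normalized count + 1), where the pseudocount understates changes of low genes. One model of the 4 group means over all 12 libraries was fitted with limma 3.58.1, with the trend and robust options. To be tested, a gene's mean normalized count had to reach 10 both over all libraries and over those compared. p-values were two-sided and Benjamini-Hochberg adjusted within a comparison, at 0.05. The steps were tested on simulated data. p-values measure the spread between these libraries only, and depth limits low genes. The members and lists were chosen with earlier results of these data known.

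All 9 genes, and fixed partner genes, are named. Of each pathway list, all called genes of a direction with 5 or fewer are named, and otherwise the largest changes among genes whose mean reaches 100 and whose groups stay apart. Symbols held by more than 1 row (Nnt) were left out, and some list genes, though counted, are not reported here by name or drawn. Gene lengths are unions of exons of GENCODE release 21 for mouse (GRCm38), in which 48975 genes of the table were found. Alternatives were median-of-ratios and total-count scaling, no filter, pseudocounts of 0.5 and 5, voom weights, a fit of the compared libraries alone, a replicate block, leaving out each library, and another TMM reference library, the last chosen after seeing the data. Deviations from group means of same-letter libraries correlated at 0.36, 0.23 and 0.29 between oxamate and untreated PD libraries, so the letters pair those samples; the pairing comes from the shared code in the column names.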

Additional observations from a re-analysis of the deposited data

How the results depend on the processing

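Of the 9 genes, Idh3a, Idh3b, Idh3g, Glud1 and Got2 kept the direction and call of their stage difference in all 15 alternatives run. With total-count scaling only 1 of the 8 tested members was called higher between the stages. Idh1 turned to a log2 fold change of -0.32 and Ogdh to -0.12. With another TMM reference library Idh1 stood at -0.044, and Ogdh, at 0.15, lost its stage call. Leaving out each library in turn gave differences of -29.1 to -25.2 percentage points for the Idh3g share and 1.63 to 3.56 for the Idh2 share. Got1, a partner, turned to -0.41 with total-count scaling, -0.13 with the other TMM reference and ranged from -0.025 to 0.24 without 1 library.

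With octyl-L2HG no member was called in any alternative run. Over all genes, the number called higher was 22 with total-count scaling, with voom weights and with the other TMM reference, 12 from the compared libraries alone and 17 to 62 without 1 library; the number called lower was 8, 0 (voom), 0 (compared libraries alone), 14 with no filter and 1 to 10 without 1 library. Ogdh turned to -0.034 with median-of-ratios scaling, -0.076 with total counts and -0.044 with the other TMM reference, and ranged from -0.054 to 0.080 without 1 library.

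With oxamate the members called higher numbered 1 with median-of-ratios scaling or no filter, 0 with total counts, voom weights or the compared libraries alone, and 0 to 1 without 1 library. The Idh3a call was lost in 11 of 15 alternatives and the Glud1 call in 8; the cause was not tested. Over all genes, the number called lower was 385 with total counts, 583 with a pseudocount of 5, 468 with voom weights, 723 from the compared libraries alone and 92 to 158 without 1 library, and the number called higher 448 to 716 without 1 library. Dlst turned to 0.014 with the other TMM reference and ranged from -0.056 to 0.028 without 1 library, and Idh1 from -0.069 to 0.025.

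A replicate block by library letter changed no call of a member. It gave 8624 genes higher and 6643 lower for the stage, 44 and 5 for octyl-L2HG and 1230 and 309 for oxamate. Outside the oxamate comparison the same-letter correlations were only 0.03 to 0.15, although every library correlated best with its own letter. These values do not settle whether the letters pair those samples. Got2, Idh3g and Glud1 in PD libraries, and Idh2 in all, rest on few counts, which limits their fold changes.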

Other observations

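Mitochondrial sirtuins and other sources of NADPH, which stand next to these enzymes, also differed between the stages. All 3 sirtuin genes were higher in untreated PD cells: Sirt4, whose protein acts on glutamate dehydrogenase, rose 6.09-fold from 57.7 ± 17.6 to 347 ± 21.8 normalized counts, while Sirt3 and Sirt5, a deacetylase and a desuccinylase, rose 5.49-fold and 3.05-fold. The mitochondrial sirtuin list held no called gene with octyl-L2HG or with oxamate. Among the 10 tested NADPH genes, PD cells had 4 higher and 6 lower. G6pd2, an autosomal glucose-6-phosphate dehydrogenase, was at 0 in all untreated LZ libraries and at 411 ± 44.4 in PD libraries, while Me3, the mitochondrial NADP malic enzyme, rose 31.0-fold and Me1, the cytosolic one, 3.02-fold. Pgd, of the pentose phosphate pathway, fell 20.2-fold and Me2, the NAD malic enzyme, 2.65-fold. Mthfd2l was called 1.51-fold higher, a call lost with total-count scaling, with the other TMM reference and without library B of untreated LZ or of untreated PD (highest limma adjusted p = 0.588).

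Rows of the table that touch these genes were looked up as well. The 3' ends of Idh3b and Nop56, a nucleolar protein gene on the opposite strand, overlap by 5 bases. Nop56 had a mean raw count of 1518 in untreated LZ libraries and 31 in untreated PD libraries, and Idh3b rose. The row Gm45760, on the opposite strand over 1782 bases of Got2, had a mean raw count of 4.67 in LZ libraries and 11 in PD libraries. The pseudogene rows Got2-ps1 and Glud-ps were at 0 in every library.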
